A study of Homo sapiens with 6 samples.

Results

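The HOX genes encode homeodomain transcription factors that give cells their position along the body axis. Here 38 of them, out of 41497 named entries in each table, were followed in HK-2 cells given TGF-β1 for 24 h. The genes were taken as a family by name, with earlier results of these data known, and no single gene was picked by its measured value. They fall into 4 clusters, with 10 genes in HOXA on chromosome 7, 10 in HOXB on chromosome 17, 9 in HOXC on chromosome 12 and 9 in HOXD on chromosome 2. HK-2 cells are human kidney proximal tubule cells that were immortalised in culture, labelled wild type. The 3 control libraries came from untreated cells and the 3 TGF-β1 libraries from cells treated with that cytokine, each at 24 h, and all were of the same line. The labels describe maintenance in medium with fetal bovine serum, whereas the study's methods describe TGF-β treatment of attached HK-2 cells in medium without serum. Neither gives the dose for the sequenced cells in particular, and the methods name more than 1 dose for different assays. They do not say whether the libraries of a group came from separate cultures, so the p-values below measure the spread between these libraries, which may be technical.

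HOX genes stand in the order of their paralog number, from group 1 at one end of a cluster to group 13 at the other, and genes of the same number in different clusters are paralogs. During development the low numbers are switched on first and in anterior tissue, and the high numbers later and in posterior tissue. Adult cells keep much of this code. Polycomb complexes hold silent HOX genes under H3K27 methylation, and Trithorax-type enzymes keep active ones open. The kidney arises from a posterior axial level, and the paralogs HOXA11, HOXC11 and HOXD11 are needed for the embryonic metanephros.

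Each library held between 21.9 and 26.9 megacounts (M). Of 13 markers of proximal tubule and renal lineage, 7 reached 1 TPM on average over the 6 libraries: PAX8, AQP1, PAX2, KRT8, KRT18, LHX1 and GGT1. The endocytic receptor LRP2 had no read and HNF4A was near 0, so the libraries lacked these defining genes of a differentiated proximal tubule. None of 4 endothelial and none of 6 distal nephron markers reached 1 TPM, against 2 of 6 fibroblast markers (LUM and PDGFRB) and 1 of 3 leukocyte markers (CD68). Several of these markers moved with treatment. PDGFRB rose from 0.250 ± 0.0456 to 2.41 ± 0.214 TPM (SD, n = 3) and COL3A1 from 0.120 ± 0.0133 to 0.779 ± 0.0685 TPM, whereas LUM, TCF21 and CD68 fell. The endothelial gene CDH5 had 29, 16 and 17 reads in control and 0 in each treated library. Among the renal markers AQP1, CUBN, KRT8, KRT18 and LHX1 rose, AQP1 from 0.483 ± 0.312 to 1.91 ± 0.525 TPM, and PAX8, PAX2 and GGT1 fell, PAX8 from 206 ± 8.03 to 114 ± 5.94 TPM. The summed level of the renal markers was 1443 to 1491 TPM in control and 1743 to 1921 TPM in treated libraries. Most of that sum was KRT8 (723 ± 14.6 and 1041 ± 65.8 TPM) and KRT18 (449 ± 16.5 and 620 ± 17.9 TPM). Its rise is therefore that of the keratins, while PAX8, PAX2 and GGT1 fell. The fibroblast markers summed to 72.6 to 87.3 and 59.8 to 63.8 TPM, mostly LUM. For the leukocyte markers the sum was 182.9 to 198.5 and 110.7 to 147.1 TPM, nearly all CD68. The endothelial markers summed to 0.617 to 1.15 and 0 to 0.0195 TPM, and the distal nephron markers to 0.835 to 1.58 and 0.773 to 0.988 TPM. CD3E, UMOD and CALB1 had no read. The part of these differences in the HOX results was not tested. All 6 genes set aside as a check of the TGF-β response rose, among them COL1A1, a fibrillar collagen chain, and SMAD7, an inhibitor of TGF-β signalling. TGF-β1 replicate 1 stood apart from the other libraries of its group, with a chi-square per degree of freedom of 18.2 and 16.9 against them, where other pairs within a group had 4.33 to 5.93. In bulk RNA, fewer cells that express a gene and less RNA per cell cannot be told apart.

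After TGF-β1 the HOXA genes mostly rose, the HOXB genes mostly fell, and the HOXC and HOXD genes moved little. Of the 38 genes, 34 passed the count filter, and 17 of these were called at an adjusted p under 0.05 by edgeR's quasi-likelihood test, 10 higher and 7 lower. That is 17 of 34, near the 44.3% called of all 14860 entries tested. The share called higher was 22.2% over all entries and the share called lower was 22.1%. The count of called HOX genes was therefore no result about the family, and the description below concerns which genes moved and in which direction. Only HOXA7 changed at least 2-fold, a size reached by 3.68% of all entries among the higher calls and by 5.38% among the lower calls. Among the HOX genes tested, log2 fold changes ran from -0.60 to 1.45 with a median of 0.09, against 0.0063 for all entries. Levels are given as CPM, counts scaled to the TMM-adjusted size of each library, which compares 1 gene between libraries, and as the deposited TPM, which also divides by gene length and so compares genes.

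**Figure D1:**
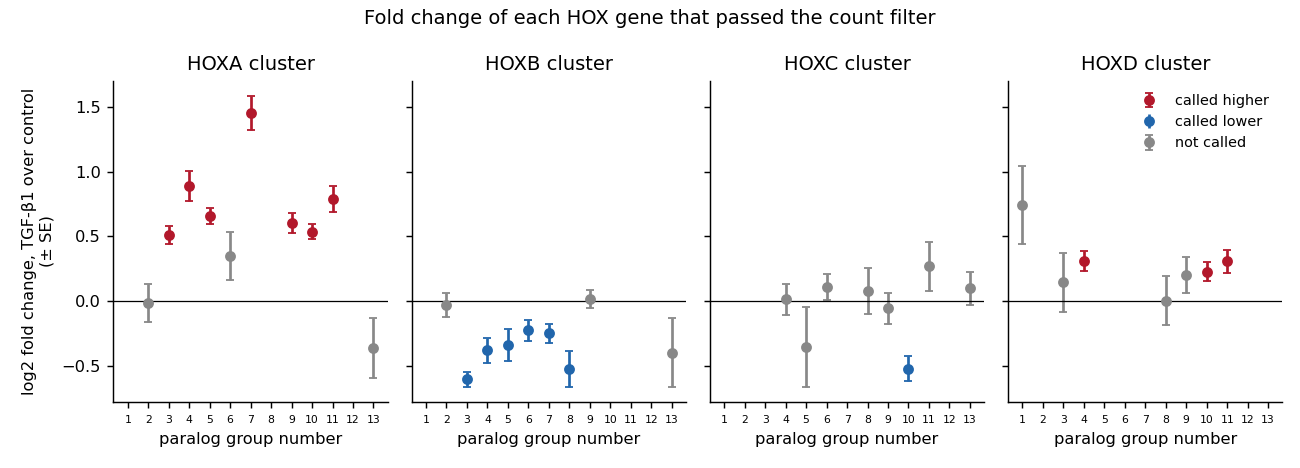
Log2 fold change after TGF-β1 over control (y axis, ± SE) of the 34 HOX genes tested, by paralog group number (x axis) in 1 panel per cluster. Red points were called higher, blue points lower and grey points were not called. HOXA holds 7 of the red points and HOXB 6 of the blue ones, and HOXA7 is the highest point at 1.45.

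Of 10 HOXA genes, all of which were tested, 7 rose, none fell and 3 were not called, with a median log2 fold change of 0.57. HOXA7, a gene of the thoracic part of the axis, changed most. It held 4.56, 3.76 and 3.96 CPM in the control libraries and 12.0, 12.2 and 9.41 CPM after TGF-β1, so that the lowest treated library was more than 2-fold above the highest control library. The rise was 2.74-fold (log2 fold change 1.45, SE 0.13, adjusted p = 7.39e-06). HOXA4, a gene of cervical identity, held 6.47, 7.52 and 6.31 CPM in control libraries and 14.1, 12.4 and 11.0 CPM after TGF-β1, with no overlap (log2 fold change 0.89, SE 0.12, adjusted p = 0.000122). HOXA11, a kidney-forming paralog, read 7.75, 6.83 and 6.35 CPM in control cells and 12.5, 11.8 and 11.8 CPM in treated cells (log2 fold change 0.79, SE 0.10, adjusted p = 9.24e-05). All 3 of its treated libraries lay above all 3 controls.

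HOXA5 was the most abundant HOXA gene by TPM in both groups, and in the embryo it is needed for lung and cervical skeleton formation. Its CPM was 27.9, 27.3 and 25.9 in control libraries and 42.9, 42.3 and 42.8 after TGF-β1, and the treated libraries lay within 1 CPM of each other (log2 fold change 0.66, SE 0.06, adjusted p = 6.37e-06). HOXA9, known from blood stem cells and leukaemia, moved from 14.0, 15.9 and 13.7 CPM to 22.0, 22.8 and 21.3 CPM (log2 fold change 0.60, SE 0.08, adjusted p = 0.000102). HOXA10, which patterns the uterus and the lumbar axis, moved from 29.6, 28.7 and 30.2 CPM to 41.5, 44.1 and 42.8 CPM (log2 fold change 0.54, SE 0.06, adjusted p = 2.99e-05). HOXA3, a gene of the pharyngeal arches, thymus and parathyroid, moved from 30.9, 28.8 and 28.0 CPM to 43.6, 41.6 and 39.6 CPM (log2 fold change 0.51, SE 0.07, adjusted p = 0.000104). In each of these 4 genes the groups did not overlap, an outcome in this direction that 27.9% of all entries showed.

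The 3 HOXA genes not called were HOXA2, HOXA6 and HOXA13. HOXA6 held 1.77, 2.13 and 2.68 CPM in control and 2.80, 2.69 and 2.91 CPM in treated libraries (log2 fold change 0.35, SE 0.18, adjusted p = 0.149), without overlap but with few reads. HOXA2, a gene of the second pharyngeal arch and hindbrain, held 3.50, 3.35 and 3.32 and then 3.73, 3.06 and 3.29 CPM (log2 fold change -0.01, SE 0.14, adjusted p = 0.955), and its groups overlapped. HOXA13, which shapes digits and the genital tract, read 1.15, 0.940 and 1.07 CPM in control and 0.691, 0.910 and 0.859 CPM in treated libraries (log2 fold change -0.36, SE 0.23, adjusted p = 0.234). It had between 18 and 26 reads a library and its estimate lay below 0, opposite to the called genes of its cluster. All treated libraries of HOXA13 lay below all controls. HOXA2 and HOXA13, at the ends of the row of HOXA genes described here, were thus not called.

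Several HOXA genes share exon bases with other entries, and the strand setting of the counting is not given in the sources used here. In the RefSeq-based exons of the files, 74.8% of the HOXA7 bases lie opposite exons of HOXA-AS3, an antisense RNA. The control libraries gave HOXA-AS3 30, 36 and 33 reads and the treated ones 49, 27 and 33, fewer than HOXA7 in each. It was not called (log2 fold change 0.12, SE 0.22, adjusted p = 0.692). HOXA9 shares 72.4% of its bases with the readthrough entry HOXA10-HOXA9, and HOXA10 shares 22.1% with HOXA10-AS and 7.83% with the readthrough. HOXA4 shares 14.0% with HOXA-AS2 and HOXA6 10.6% with HOXA-AS3. Among the 5 HOXA genes that share no more than 10% of their bases, 3 rose (HOXA3, HOXA5 and HOXA11).

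**Figure D2:**
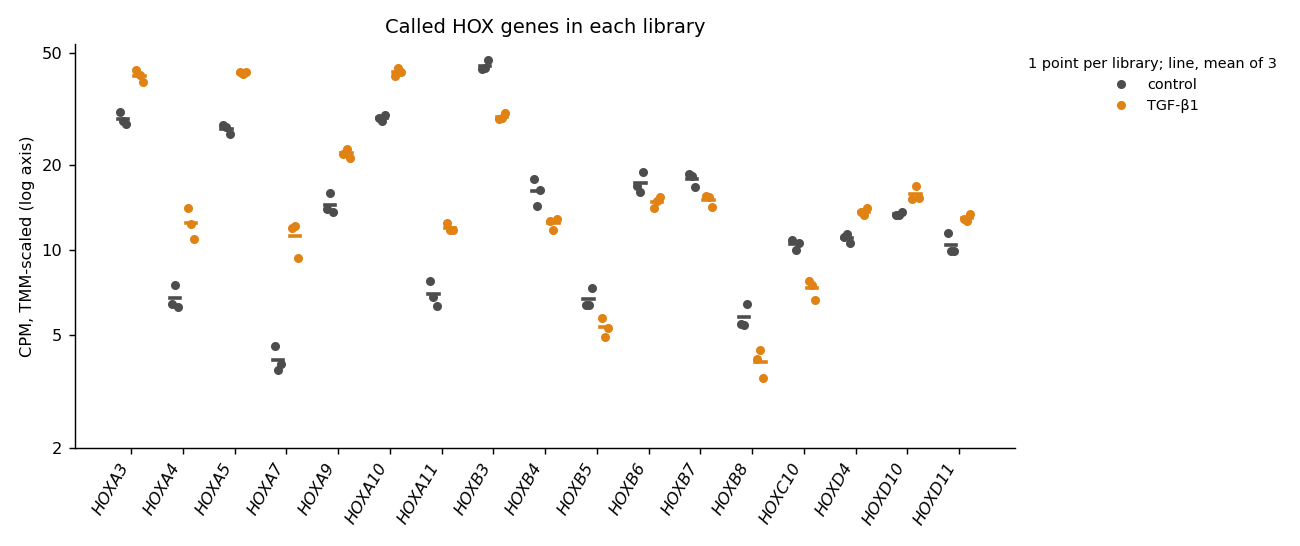
TMM-scaled CPM (y axis, log scale) of the 17 called HOX genes (x axis), with 1 point per library, grey for control and orange for TGF-β1, and a line at the mean of each 3. The HOXA genes shift up and the HOXB genes shift down; HOXA7 moves from between 3.76 and 4.56 CPM to between 9.41 and 12.2 CPM.

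The promoters of the HOXA genes that rose most are shown to let their sequence be compared. They are RefSeq sequences of GRCh38.p14 and run 250 bases up to the annotated start, written 5′ to 3′ on the strand of the gene. Capitals mark the SMAD box, the short element bound by SMAD3 and SMAD4 (CAGAC, or GTCTG on the other strand). The HOXA7 window lies at chr7:27156676-27156925 (minus strand), the HOXA4 window at chr7:27130758-27131007 (minus strand) and the HOXA11 window at chr7:27185233-27185482 (minus strand).
HOXA7: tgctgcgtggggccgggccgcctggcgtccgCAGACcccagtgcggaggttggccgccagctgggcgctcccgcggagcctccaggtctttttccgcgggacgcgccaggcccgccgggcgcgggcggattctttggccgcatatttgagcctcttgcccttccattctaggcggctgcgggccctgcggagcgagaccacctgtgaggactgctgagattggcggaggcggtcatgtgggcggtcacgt
HOXA4: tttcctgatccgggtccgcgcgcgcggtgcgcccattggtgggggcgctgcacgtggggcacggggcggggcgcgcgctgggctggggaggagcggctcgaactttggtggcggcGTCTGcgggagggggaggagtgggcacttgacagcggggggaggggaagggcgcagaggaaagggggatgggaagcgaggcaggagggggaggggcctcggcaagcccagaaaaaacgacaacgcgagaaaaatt
HOXA11: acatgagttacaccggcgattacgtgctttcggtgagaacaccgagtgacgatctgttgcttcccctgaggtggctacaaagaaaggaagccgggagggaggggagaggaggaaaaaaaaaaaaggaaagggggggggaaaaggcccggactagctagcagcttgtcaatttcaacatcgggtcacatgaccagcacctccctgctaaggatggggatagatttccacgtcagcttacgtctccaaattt
HOXA7 and HOXA4 hold 1 such element each and HOXA11 holds none.

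The promoter table covered 20 of the 38 genes with 27 windows of 300 bases, which add 50 bases from the start on. It covered none of the 7 genes that fell, so promoters of genes that rose and fell were not compared. A SMAD box stood in 11 of the 27 windows (40.7%), against 45.3% of all 35116 promoter windows. Most of these 11 windows belonged to HOXA3, which entered with 7, and HOXC4 and HOXC5 entered with the same window. The share of windows is therefore not a share of separate genes. By gene, 4 of 9 that rose, 1 of 8 not called and 1 of 3 not tested had one. The GC-rich SMAD element (GGCGC or GGCCG, both strands) stood in 77.8% of HOX windows against 60.7% of all. An AP-1 site (TGANTCA) stood in 0 of 27 HOX windows against 7.71% of all, and a TATA box (TATAAA) in 18.5% against 11.5%. The PBX-HOX site (TGATTNAT), at which HOX proteins bind with their cofactors, stood in 7.41% of HOX windows against 2.82% of all. The elements were searched on both strands, and they may overlap each other. A match is a description of the letters in the window and no evidence of binding.

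Of 10 HOXB genes, 9 were tested, and of these 6 fell, none rose and 3 were not called, with a median log2 fold change of -0.34. HOXB3, an anterior gene of hindbrain and pharynx, fell most. Its CPM was 43.8, 44.4 and 47.3 in control libraries and 29.3, 29.4 and 30.6 after TGF-β1, with a wide gap between the groups (log2 fold change -0.60, SE 0.06, adjusted p = 1.51e-05). HOXB8 held 5.49, 5.44 and 6.43 CPM in control and 4.11, 4.43 and 3.53 CPM in treated libraries, again without overlap (log2 fold change -0.52, SE 0.14, adjusted p = 0.0104). HOXB4, known for expanding blood stem cells, moved from 17.9, 14.3 and 16.4 CPM to 12.7, 11.8 and 12.9 CPM (log2 fold change -0.38, SE 0.09, adjusted p = 0.00726). These 3 calls held in all 14 alternative analyses.

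The other 3 HOXB genes that fell did so by less, and their calls were less secure. HOXB5 read 6.42, 6.42 and 7.33 CPM in control and 5.76, 4.92 and 5.30 CPM in treated libraries (log2 fold change -0.34, SE 0.12, adjusted p = 0.0438). HOXB6 read 16.8, 16.1 and 19.0 CPM and then 14.1, 15.0 and 15.4 CPM (log2 fold change -0.22, SE 0.08, adjusted p = 0.0467). HOXB7 read 18.6, 18.3 and 16.7 CPM and then 15.5, 15.4 and 14.2 CPM (log2 fold change -0.25, SE 0.08, adjusted p = 0.0208). In each of the 6 genes that fell, all treated libraries lay below all controls, as in 27.7% of all entries. DESeq2 called none of HOXB5, HOXB6 and HOXB7. With 1 library left out, the call of HOXB5 was lost for every library but TGF-β1 replicate 1, that of HOXB6 for every library but control replicate 2, and that of HOXB7 for control replicates 1 and 2 and for TGF-β1 replicate 3. The log2 fold change of all 3 stayed below 0 in every alternative, between -0.44 and -0.15.

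The other 3 tested HOXB genes, HOXB2, HOXB9 and HOXB13, were not called. HOXB2, which specifies hindbrain and facial motor neurons, held 39.1, 37.2 and 34.2 CPM in control and 41.3, 33.3 and 33.7 CPM in treated libraries (log2 fold change -0.03, SE 0.09, adjusted p = 0.827). HOXB9, a gene of thoracic identity, held 41.7, 42.3 and 39.4 CPM and then 44.6, 42.1 and 38.3 CPM (log2 fold change 0.02, SE 0.07, adjusted p = 0.847). In both genes the groups overlapped, and in HOXB2 the treated library that stands apart, replicate 1, was the highest of all 6. HOXB13, a prostate and hindgut gene far from the rest of the cluster, held 2.35, 1.76 and 1.49 CPM and then 1.96, 1.16 and 1.10 CPM (log2 fold change -0.40, SE 0.27, adjusted p = 0.256). Its replicate 1 after TGF-β1 lay among the controls, and without that library the gene was called lower at -0.73.

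Of 9 HOXC genes, 8 were tested, and the single call was HOXC10. This gene of the lumbar axis fell from 10.9, 10.1 and 10.6 CPM in control libraries to 7.76, 7.53 and 6.68 CPM after TGF-β1, without overlap (log2 fold change -0.52, SE 0.10, adjusted p = 0.00140). HOXC6 was the most abundant of the others by CPM, with 9.22, 8.54 and 8.52 CPM in control and 10.2, 9.64 and 8.55 CPM in treated libraries (log2 fold change 0.11, SE 0.10, adjusted p = 0.397). HOXC9 held 7.0, 5.72 and 6.82 and 6.11, 6.12 and 6.59 CPM (log2 fold change -0.05, SE 0.12, adjusted p = 0.742). The groups of both genes overlapped. The median of the 8 was 0.05.

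HOXC13, a regulator of hair and nail keratins, held 4.52, 4.58 and 4.82 CPM in control and 5.18, 5.29 and 4.44 CPM in treated libraries (log2 fold change 0.10, SE 0.13, adjusted p = 0.549). HOXC4 held 4.30, 4.58 and 4.35 and then 4.38, 4.63 and 4.34 CPM (log2 fold change 0.01, SE 0.12, adjusted p = 0.937). HOXC8, which patterns the brachial cord, held 1.68, 1.92 and 2.09 and then 1.96, 1.86 and 2.20 CPM (log2 fold change 0.08, SE 0.18, adjusted p = 0.766). None of these 3 separated the groups. HOXC11, the kidney paralog of this cluster, held 1.95, 1.51 and 1.75 and then 2.23, 2.27 and 1.77 CPM (log2 fold change 0.27, SE 0.19, adjusted p = 0.272). HOXC5 held 0.930, 0.858 and 0.980 and then 0.845, 0.910 and 0.382 CPM (log2 fold change -0.35, SE 0.31, adjusted p = 0.390). It was over the filter cutoff in 3 control and 2 treated libraries, and 1 treated library had 8 reads. HOXC4, HOXC5 and HOXC6 share a 527-base exon, which makes 22.4% to 24.6% of their bases. Whether reads there were assigned to 1 of them or left out is not given in the sources used here.

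HOXC4 and HOXC5 also share 1 promoter window in the RefSeq table, at chr12:54016638-54016887 (plus strand), shown because 1 sequence stands before both genes. The HOXC6 entry starts at the same base, so the window stands before HOXC6 as well. This window holds no SMAD box.
HOXC4 and HOXC5: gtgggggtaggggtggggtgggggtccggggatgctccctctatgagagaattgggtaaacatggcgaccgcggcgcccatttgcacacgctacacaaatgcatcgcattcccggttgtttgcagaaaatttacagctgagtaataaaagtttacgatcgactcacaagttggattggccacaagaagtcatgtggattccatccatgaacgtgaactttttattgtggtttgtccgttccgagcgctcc
None of HOXC4, HOXC5 and HOXC6 was called, as given above.

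Of 9 HOXD genes, 7 were tested, 3 rose, none fell and 4 were not called, with a median log2 fold change of 0.23. HOXD11, a kidney-forming paralog, held 11.5, 9.93 and 9.97 CPM in control and 12.9, 12.7 and 13.4 CPM in treated libraries (log2 fold change 0.31, SE 0.09, adjusted p = 0.0154). HOXD4, a hindbrain gene, held 11.2, 11.4 and 10.7 CPM and then 13.7, 13.3 and 14.2 CPM (log2 fold change 0.31, SE 0.08, adjusted p = 0.00790). HOXD10, a gene of lumbar motor neurons, held 13.4, 13.4 and 13.7 CPM and then 15.2, 16.9 and 15.3 CPM (log2 fold change 0.23, SE 0.08, adjusted p = 0.0295). The groups of all 3 did not overlap in CPM, but those of HOXD10 overlapped in TPM. All 3 calls were lost when libraries were scaled by total counts alone, a choice that shifted the median of all entries by -0.11. DESeq2 called neither HOXD10 nor HOXD11. With 1 library left out, the HOXD10 call was lost without any 1 of the control libraries or TGF-β1 replicate 2, and that of HOXD11 for control replicates 2 and 3 and for TGF-β1 replicate 3.

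Among the HOXD genes not called, HOXD1 had the largest estimate. It held 0.842, 0.409 and 0.639 CPM in control and 0.960, 1.28 and 0.907 CPM in treated libraries, without overlap (log2 fold change 0.74, SE 0.30, adjusted p = 0.0663). It had 10 to 31 reads a library and was over the filter cutoff in 2 control and 3 treated libraries. Without control replicate 1 it was called higher at 1.0. HOXD9 held 3.99, 3.68 and 3.54 and then 4.76, 3.85 and 4.30 CPM (log2 fold change 0.20, SE 0.14, adjusted p = 0.262). HOXD8 held 2.48, 3.52 and 2.56 and then 3.34, 2.52 and 2.72 CPM (log2 fold change 0.01, SE 0.19, adjusted p = 0.984). HOXD3 held 1.64, 1.64 and 2.00 and then 2.42, 1.41 and 2.01 CPM (log2 fold change 0.15, SE 0.22, adjusted p = 0.631). The groups of these last 3 overlapped.

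The 4 genes under the count filter were HOXB1, HOXC12, HOXD12 and HOXD13. HOXC12 had 0 reads in 141.7 M counts, which allows up to 0.0212 CPM over all libraries by a limit of 3 counts, for counting error only. HOXB1, a hindbrain gene, had 1 read in all, in control replicate 3. HOXD12 had 4 reads in control and 5 in treated libraries. HOXD13, the digit gene, gave 14, 9 and 9 reads before and 8, 7 and 8 reads after TGF-β1, too few for a test. In HOXB the near-silent gene was the one of lowest number, and in HOXD those of highest number.

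By TPM, 33 of the 38 genes reached 1 TPM in at least 1 group. In control cells HOXB2 led at 69.5 ± 3.47 TPM (SD, n = 3), followed by HOXA5 at 53.8 ± 1.13, HOXB9 at 52.9 ± 1.32, HOXB7 at 43.6 ± 1.68 and HOXA10 at 35.6 ± 1.35 TPM. HOXA5 and HOXB9 did not differ beyond their spread. Below them HOXB4 (27 ± 2.84), HOXB6 (26.0 ± 2.65) and HOXD10 (25.1 ± 0.769) lay within each other's spread as well. After TGF-β1 HOXA5 led at 78.3 ± 1.83 TPM, above HOXB2 at 62.7 ± 5.97. HOXB9 at 49.3 ± 3.02 and HOXA10 at 47.6 ± 2.75 TPM did not differ beyond their spread, and HOXB7 (33.9 ± 1.57) and HOXA9 (32.8 ± 1.65) came next and overlapped. HOXA10 had thus passed HOXB7 in the order. Cells of this line carried high levels of both anterior genes such as HOXB2 and posterior genes such as HOXA10 and HOXB9. HOXB3 shows what length does to the order, since its entry counts 18337 exon bases and it ranked 2 of 38 by CPM and 22 by TPM.

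The opposite movement of HOXA and HOXB changed the balance of reads between the clusters. In control libraries the ratio of HOXA reads to HOXB reads was 0.663, 0.672 and 0.645, and after TGF-β1 it was 1.16, 1.23 and 1.20. HOXB reads outnumbered HOXA reads in every control library, and HOXA reads outnumbered HOXB reads in every treated library. The share of HOX reads in HOXA was 31.4 ± 0.465% (SD, n = 3) in control cells and 43.3 ± 0.531% after TGF-β1, and the share in HOXB was 47.5 ± 0.318% and 36.3 ± 0.696%. HOXC held 9.91 ± 0.286% and 8.42 ± 0.254%, and HOXD held 11.2 ± 0.112% and 12.0 ± 0.362%. All HOX genes together gave 398 ± 7.30 CPM in control and 443 ± 14.2 CPM in treated libraries. These sums are not divided by gene length and count long genes more, and they follow from the single genes above.

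**Figure D3:**
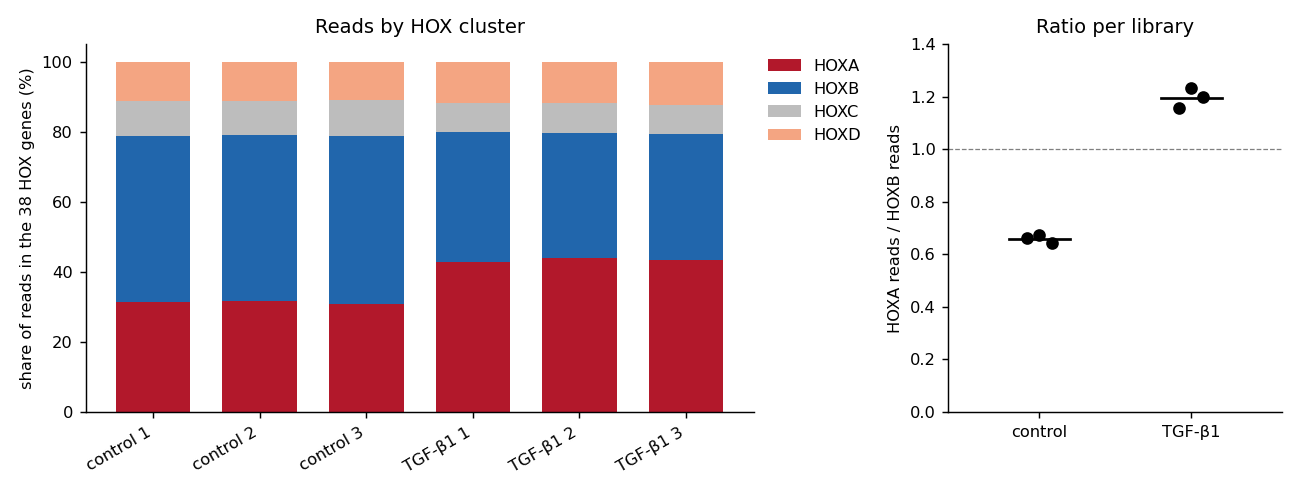
Left, share of the reads of the 38 HOX genes that fell in each cluster (y axis, %) for each library. Right, ratio of HOXA to HOXB reads per library (points) with the mean of 3 (line), and a dashed line at 1; control libraries lie between 0.645 and 0.672 and TGF-β1 libraries between 1.16 and 1.23.

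Within a paralog group the HOXA and HOXB genes encode closely related proteins, so their ratio in each library was compared. Of 8 such pairs, 6 had a higher HOXA to HOXB ratio in every treated library than in any control. Over all 35 pairs of HOX paralogs tested, 23 did not overlap between groups in either direction. The share over pairs of other entries was not computed. These ratios follow from the single genes above and are no separate result. For HOXA7 over HOXB7 the ratio of reads was 0.245, 0.206 and 0.237 in control libraries and 0.772, 0.791 and 0.661 after TGF-β1. For HOXA3 over HOXB3 it was 0.705, 0.648 and 0.591 and then 1.49, 1.41 and 1.29, and so passed from below 1 to above 1. For HOXA4 over HOXB4 it was 0.360, 0.524 and 0.385 and then 1.11, 1.05 and 0.849. The ratio HOXA5 over HOXB5, above 1 in all libraries, moved from 4.34, 4.25 and 3.53 to 7.44, 8.59 and 8.08. The differences of the mean log2 ratio in the 6 pairs ran from 0.59 to 1.69. Each had a two-sided exact permutation p of 0.1, the smallest that 3 against 3 libraries allow, and 0.133 after adjustment over the 8 pairs. The ratios HOXA2 over HOXB2 and HOXA13 over HOXB13 overlapped between groups.

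**Figure D4:**
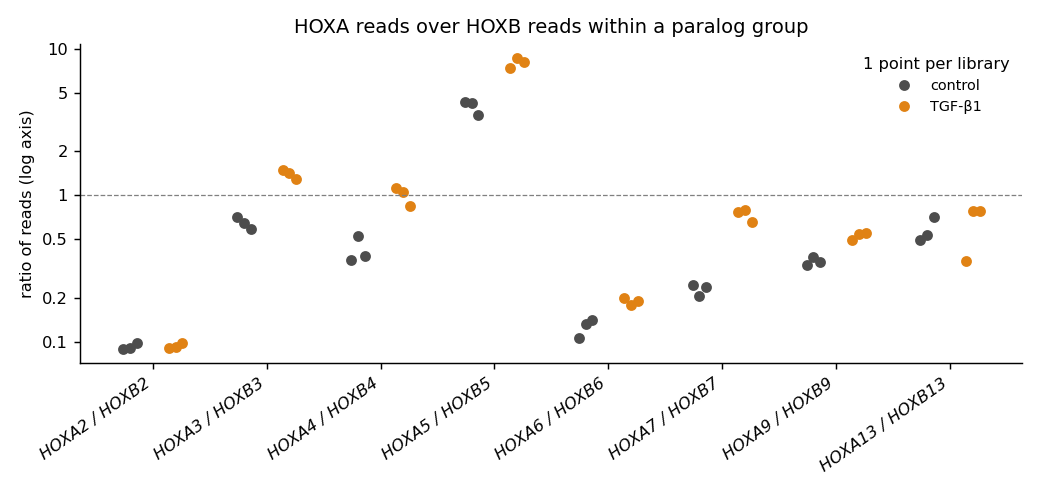
Ratio of HOXA reads to HOXB reads (y axis, log scale) for the 8 paralog groups with both genes tested (x axis), 1 point per library, grey for control and orange for TGF-β1; the dashed line marks equal reads. The groups are apart in 6 pairs, most for HOXA7 over HOXB7, and overlap for HOXA2 over HOXB2 and HOXA13 over HOXB13.

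The kidney-forming group 11 has no HOXB member. Of its 3 genes HOXA11 and HOXD11 rose and HOXC11 was not called. In paralog group 10 HOXA10 and HOXD10 rose and HOXC10 fell. In groups 3, 4, 5 and 7 the HOXA gene rose and the HOXB gene fell. Direction therefore differed between paralogs of the same group.

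Position within a cluster was compared next. Across the genes tested, Spearman's rho between paralog number and log2 fold change was 0.018 in HOXA (n = 10 genes), 0.017 in HOXB (n = 9), 0.29 in HOXC (n = 8) and -0.036 in HOXD (n = 7). Pearson's r was -0.16 in HOXA, -0.017 in HOXB, 0.19 in HOXC and -0.52 in HOXD, where HOXD1, with few reads, had the largest estimate. These correlations are descriptions over genes of the same libraries. The order along the cluster was thus not monotonic. Among the HOXA and HOXB genes described here, the called genes stood together in the middle of the row, with HOXA6 not called among them. In HOXB all 5 genes of groups 4 to 8 fell and neither of the 2 tested genes of groups 9 to 13 did. In HOXA 3 of 4 genes of groups 4 to 8 and 3 of 4 genes of groups 9 to 13 rose.

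Other entries inside the clusters and within 100 kb on each side were read as well. Of 58 such entries 25 were tested, 8 rose and 5 fell. Of all entries tested, 44.3% were called, 22.2% higher and 22.1% lower, so this count was no result about the neighbours. Just outside the low-number end of the HOXA genes described here, HOTAIRM1, a long non-coding RNA, rose from 15.9, 16.4 and 15.6 CPM to 25.5, 22.3 and 21.1 CPM (log2 fold change 0.53, SE 0.08, adjusted p = 0.000369). Inside HOXA, HOXA-AS2 (log2 fold change 0.55), HOXA10-AS (0.54) and the HOXA10-HOXA9 readthrough (0.76) rose too. The readthrough shares 1494 exon bases with HOXA9 and 216 with HOXA10 on the same strand. HOXA-AS2 and HOXA10-AS lie opposite exon bases of HOXA genes, as given above, so these rises need not be separate counts. HOTAIRM1 rose beside HOXA2, which was not called, and HOXA11-AS was not called (0.03) beside HOXA11, which rose.

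Inside HOXB the called non-coding entries split by place. Not called were HOXB-AS1, nearer the low-number end (log2 fold change -0.07, adjusted p = 0.790), and LINC02086, beyond HOXB9 (-0.30, adjusted p = 0.325). HOXB-AS2 fell from 1.55, 2.17 and 2.51 CPM to 0.461, 0.951 and 1.10 CPM (log2 fold change -1.33, SE 0.31, adjusted p = 0.00510), and HOXB-AS3, opposite HOXB5 and HOXB6, fell from 7.40, 6.58 and 7.07 CPM to 3.49, 4.34 and 5.01 CPM (log2 fold change -0.71, SE 0.15, adjusted p = 0.00248). By exon bases HOXB3 shares 6.56% with HOXB-AS2 on the opposite strand, HOXB5 shares 3.93% and HOXB6 9.36% with HOXB-AS3, so these falls are not fully separate counts if strand was not used. On the other side of HOXB9, 3 entries rose. LOC101060400 rose from 21.4, 21.1 and 20.2 CPM to 27.9, 28.7 and 28.0 CPM (log2 fold change 0.43, SE 0.06, adjusted p = 0.000186). HOXB-AS4 rose with a log2 fold change of 0.50 (adjusted p = 0.0468) and MIR196A1 with 0.83 (adjusted p = 0.0170), the latter from 36, 27 and 25 reads to 44, 67 and 47. HOXB-AS4 shares 19.1% of its exon bases with LOC101060400 on the opposite strand, so these entries are not fully separate counts if strand was not used. MIR196A1 lies within the span of HOXB-AS4 and shares no exon base with it. The stretch that fell, from HOXB-AS2 to HOXB8, thus lay next to HOXB9, which was not called, and then to the entries that rose. Outside the genes of the cluster, SKAP1, an adaptor of T cell signalling, fell (log2 fold change -0.79, SE 0.11, adjusted p = 0.000207), and TTLL6, a tubulin polyglutamylase, fell from 1.77, 1.59 and 2.09 CPM to 0.307, 0.620 and 0.621 CPM (log2 fold change -1.82, SE 0.28, adjusted p = 0.000351).

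At HOXD the antisense RNA HAGLR rose (log2 fold change 0.29, SE 0.08, adjusted p = 0.00996) beside HOXD1 and HOXD3, which were not called, and LNPK, an endoplasmic reticulum protein gene outside the cluster, fell by 0.16 on the log2 scale (adjusted p = 0.0438). At HOXC none of the tested entries was called, and HOTAIR, a long non-coding RNA known to bind Polycomb, had 12 to 19 reads a library (log2 fold change 0.20, SE 0.28, adjusted p = 0.595).

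**Figure D5:**
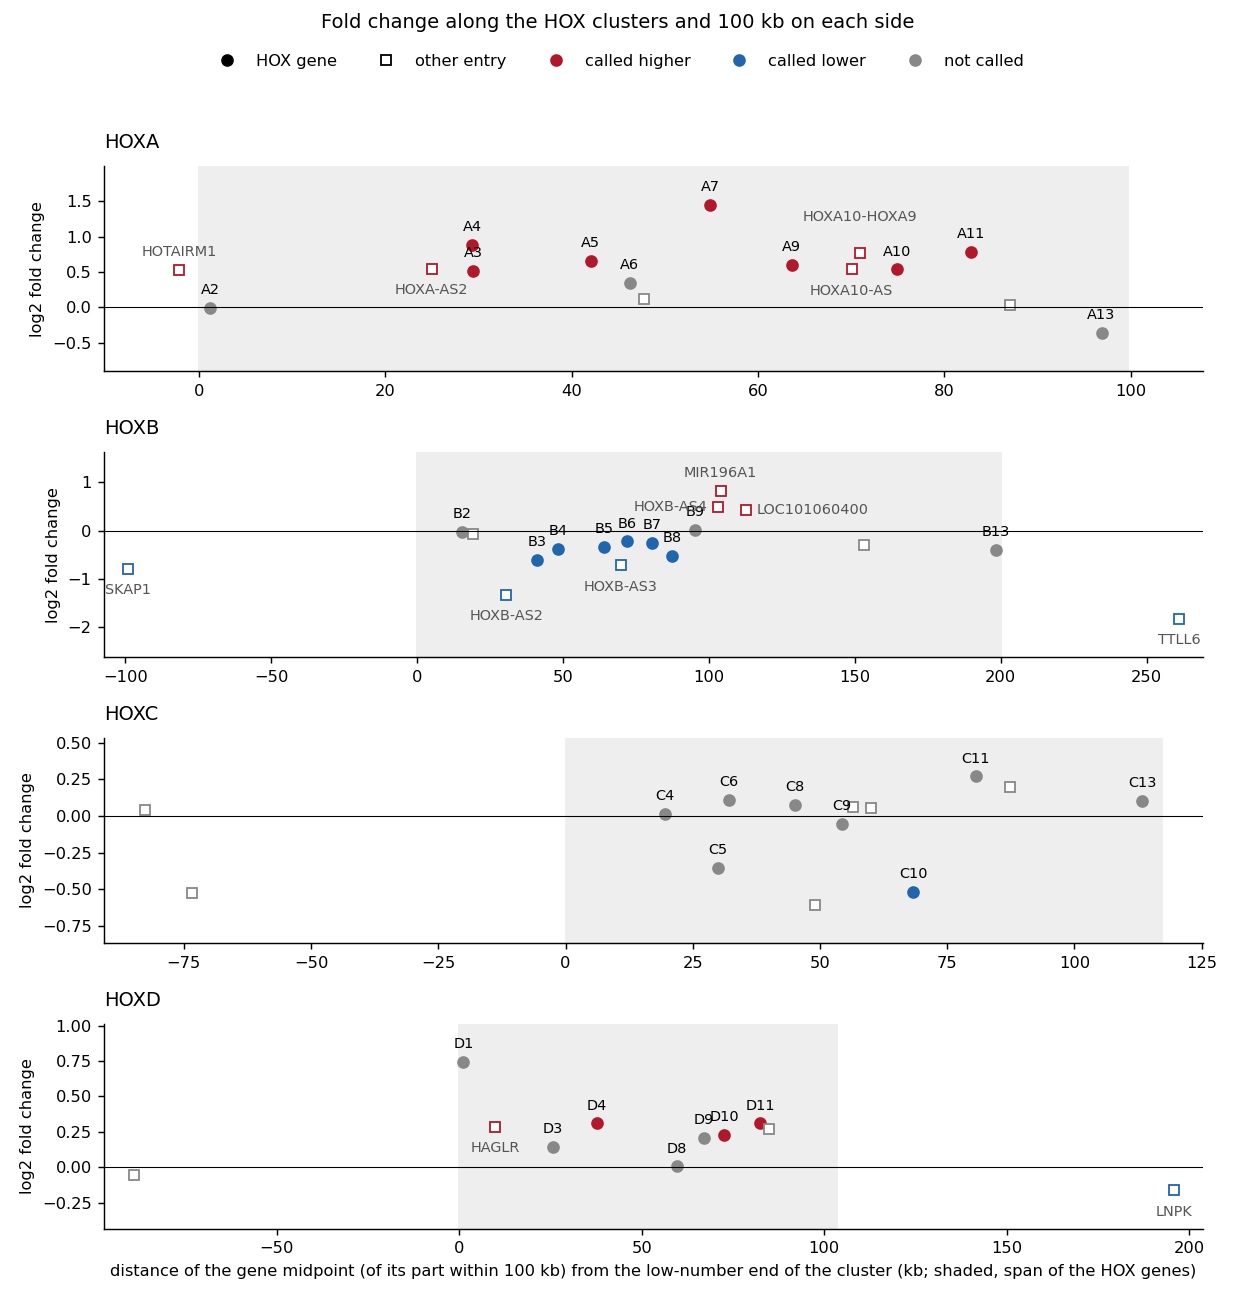
Log2 fold change after TGF-β1 over control (y axis) by distance of the gene's midpoint from the low-number end of the cluster (x axis, kb), for the HOX genes (filled circles) and other tested entries within 100 kb (open squares), in 1 panel per cluster with the span of the HOX genes shaded. In HOXB the blue symbols inside the cluster run from HOXB-AS2 to HOXB8, the 3 entries next to HOXB9 on its other side are red, and SKAP1 and TTLL6 outside are blue. In HOXA the red symbols run from HOTAIRM1 to HOXA11, with HOXA2, HOXA6 and 1 other entry grey among them.

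The clusters also carry miRNA genes, shown because their mature forms target HOX transcripts and 1 of them, MIR196A1, lay among the entries that rose. Capitals mark the seed (bases 2 to 8) in the mature RefSeq sequences.
hsa-miR-196a-5p: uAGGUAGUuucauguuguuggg
hsa-miR-196b-5p: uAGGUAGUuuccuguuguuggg
hsa-miR-10a-5p: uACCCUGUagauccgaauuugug
The 2 forms of miR-196, made from MIR196A1 in HOXB, MIR196A2 in HOXC and MIR196B in HOXA, share the seed AGGUAGU. HOXB8 is a known target of miR-196. The seed of miR-10a-5p, from MIR10A in HOXB, is ACCCUGU. Libraries of poly(A) RNA do not measure mature miRNAs, so the reads at MIR196A1 give no level of miR-196a.

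HOX proteins bind DNA with cofactors of the PBX, MEIS and PKNOX families. Of 9 cofactor genes 8 were tested, 3 rose and none fell. MEIS1 rose most, from 0.930, 0.818 and 0.852 CPM to 2.77, 3.02 and 3.20 CPM (log2 fold change 1.78, SE 0.18, adjusted p = 1.55e-05), and its lowest treated library lay far above its highest control. PBX4 rose from 11.8, 11.2 and 10.7 CPM to 30.6, 29.2 and 27.3 CPM (log2 fold change 1.37, SE 0.07, adjusted p = 1.04e-07), and MEIS3 from 19.6, 22.9 and 20.5 CPM to 29.7, 26.3 and 25 CPM (log2 fold change 0.36, SE 0.09, adjusted p = 0.00523). PBX3 was the most abundant at 71.6 ± 1.02 TPM in control cells and was not called (-0.12). PBX2 has copies on alternate contigs of the assembly, where its reads could be split, so its value is uncertain. The median of the 8 was 0.16.

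In the embryonic kidney the group 11 proteins act with EYA1 and PAX2 on SIX2 and GDNF. Of 7 genes of this set 4 were tested, none rose and 1 fell. PAX2, a kidney lineage factor, fell from 3.46, 5.64 and 4.43 CPM to 2.92, 3.27 and 2.82 CPM (log2 fold change -0.59, SE 0.18, adjusted p = 0.0240). SIX2 (0.30) and GDNF (0.09), the known targets, were not called, and EYA1 was under the filter. Of 12 known upstream regulators of HOX genes 9 were tested and 2 rose. EGR2, which drives hindbrain HOX genes such as HOXB2, rose from 2.39, 2.62 and 2.09 CPM to 40.4, 40.1 and 38.5 CPM (log2 fold change 4.06, SE 0.09, adjusted p = 2.31e-10), while HOXB2 was not called. YY1 rose slightly (log2 fold change 0.17, SE 0.05, adjusted p = 0.0151), and CDX1, CDX2 and CDX4 were under the filter.

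Of 27 Polycomb genes 25 were tested, 3 rose and 7 fell, and their median was 0.02. PHF1 and RING1 have copies on alternate contigs, as PBX2 does, so their values are uncertain. PHF1 had 21, 153 and 11 reads in control and 173, 17 and 149 in treated libraries, and RING1 was under the filter. JARID2, which recruits the H3K27 methyltransferase complex, rose from 46.7, 46.1 and 46.9 CPM to 107, 128 and 120.1 CPM (log2 fold change 1.35, SE 0.07, adjusted p = 6.75e-08). PCGF3 (0.34), a part of Polycomb complex PRC1, and AEBP2 (0.16), a cofactor of the methyltransferase complex, rose less. CBX7, a reader of H3K27 methylation, fell from 8.02, 8.91 and 8.01 CPM to 6.14, 5.05 and 5.16 CPM (log2 fold change -0.61, SE 0.12, adjusted p = 0.00177). KDM2B, which brings Polycomb complex PRC1 to CpG islands, fell from 97.4, 93.2 and 90.6 CPM to 61.6, 65.1 and 61.0 CPM (log2 fold change -0.58, SE 0.06, adjusted p = 1.08e-05), and PHF19 fell by 0.39 on the log2 scale. The core subunits EZH2 (-0.13), SUZ12 (0.07) and EED (0.15) were not called.

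Of 16 Trithorax and H3K27 demethylase genes, all tested, 1 rose and 4 fell. KDM6B, an enzyme that removes H3K27 methylation, rose from 26.9, 28.1 and 23.9 CPM to 101, 103 and 95.0 CPM (log2 fold change 1.92, SE 0.07, adjusted p = 7.11e-09), whereas its relative KDM6A was not called (0.17, adjusted p = 0.0504). AFF1 (-0.47), MLLT3 (-0.38), the H3K79 methyltransferase DOT1L (-0.26) and PSIP1 (-0.22) fell. KMT2A, the methyltransferase that maintains HOXA expression, had 279, 271 and 292 CPM in control and 147, 219 and 223 CPM in treated libraries and was not called (log2 fold change -0.52, SE 0.17, adjusted p = 0.0525). No histone mark was measured, and whether any of these regulators acts on the HOX genes was not tested. Against a called background of 44.3%, the lists of cofactors, kidney partners, upstream regulators, Polycomb and Trithorax genes had 3 of 8, 1 of 4, 2 of 9, 10 of 25 and 5 of 16 called genes.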

How the data were processed

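RNA from 3 control and 3 TGF-β1 libraries of HK-2 cells was captured on oligo(dT) beads and reverse transcribed with random hexamers. Per the labels, groups were untreated or given TGF-β1 for 24 h. The authors deposited raw counts per gene on hg38, with TPM and FPKM values computed from them; FPKM was not used. The submitters' processing notes name CASAVA, featureCounts 2.0.1 and DESeq2 1.16.1, with no role or order. The strand setting of the counting is not given in the sources used here. Broken records (7 per table) were rejoined. Entries without a name held 0.396% to 0.464% of counts and were left out of tests and library sizes.

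Named entries were filtered with filterByExpr (minimum count 10), scaled by TMM and tested with edgeR 4.0.16 (quasi-likelihood, R 4.3.3), without a block, with Benjamini-Hochberg adjustment over 14860 entries. The SE of a log2 fold change was derived from the F statistic. Calls used an adjusted p under 0.05. Alternatives used DESeq2 1.42.0, limma 3.58.1 (voom), other scalings and filters, the replicate number as a block, entries of a name summed, and 1 library left out. Ratios were compared with two-sided exact permutation tests. Intervals and limits cover counting error only, since the libraries carry no molecular identifiers.

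The genes and lists were chosen with earlier results of these data known. All members were to be named, with values in every library for those of at least 1 TPM in a group or called; of other lists, the 3 largest calls in each direction, and every called cluster neighbour. Other genes named were chosen after their values were seen. Of the 39 HOX genes listed by name in the files 1, and of the other lists 5 genes, are not reported here and entered no list count.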

Additional observations from a re-analysis of the deposited data

How the results depend on the processing

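The calls of 11 of the 17 HOX genes held in all 14 alternatives (HOXA3, HOXA4, HOXA5, HOXA7, HOXA9, HOXA10 and HOXA11 higher; HOXB3, HOXB4, HOXB8 and HOXC10 lower). HOXB5, HOXB6, HOXB7, HOXD4, HOXD10 and HOXD11 lost theirs in 8, 9, 4, 1, 7 and 5 alternatives, and no called gene changed direction. DESeq2 called 4 HOX genes lower. With 1 library left out, 8 to 10 genes were called higher, 4 to 7 lower and 1 to 2 at least 2-fold, and the medians ran from 0.54 to 0.59 in HOXA, -0.40 to -0.24 in HOXB, 0.00086 to 0.0647 in HOXC and 0.22 to 0.32 in HOXD. Scaling by total counts alone moved the median of all entries by -0.11 and the split of all calls to 2134 higher and 4590 lower, against 3294 and 3288. It gave medians of 0.46 in HOXA, -0.44 in HOXB, -0.0623 in HOXC and 0.12 in HOXD, turned HOXB9 (-0.0879), HOXC4 (-0.0933), HOXC8 (-0.0313), HOXC13 (-0.0056) and HOXD8 (-0.10), and called 5 cofactors and 8 Trithorax genes. Where genes needed 50 counts on average, HOXB9 (-0.00266), HOXC4 (-0.00777), HOXD8 (-0.0159) and the HOXC median (-0.00777) turned. Some genes that were not called turned when 1 library was left out, within ranges of -0.11 to 0.0479 (HOXA2), -0.15 to 0.0237 (HOXB2), -0.0441 to 0.0723 (HOXB9), -0.0189 to 0.0433 (HOXC4), -0.14 to 0.0015 (HOXC9), -0.0616 to 0.33 (HOXD3) and -0.13 to 0.19 (HOXD8). By CPM 3 of the 5 genes leading by TPM stayed among the first 5. Low counts limit HOXA13, HOXB13, HOXC5 and HOXD1.

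Deviations of same-numbered libraries from their group means were weakly correlated (0.11, -0.01 and 0.08). With 3 libraries per group, this cannot decide whether the numbers pair the samples. With the replicate block, 10 HOX genes were called higher and 6 lower, HOXB5 being lost.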

Other observations

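A locus without a name lay 9.97 kb beyond the HOXD1 end of the cluster, at chr2:176200878-176201288. It held 2.66, 2.00 and 2.68 CPM in control libraries and 1.5, 1.41 and 1.86 CPM after TGF-β1 (2.45 ± 0.386 and 1.59 ± 0.241 CPM, SD, n = 3). The groups did not overlap, with a two-sided exact permutation p of 0.1, the smallest that 3 against 3 libraries allow. Of all entries tested, 27.7% had all treated libraries below all controls, so this outcome is common.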
